A study of Mus musculus with 27 samples.

Results

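Keratin 8 and keratin 18, the filament pair of simple epithelia, and the intermediate filament genes of the muscle fibre and its surrounding cells were followed through a volumetric muscle loss injury. The set held 7 of the 54532 genes of the deposited table, found by symbol: Krt8, Krt18, Des, Vim, Nes, Synm and Plec. Krt8 and Krt18 were chosen by their measured FPKM in these libraries, which were low in uninjured and high in later injured muscle, and the others as the filament genes of muscle, so the levels of Krt8 and Krt18 are given as a description without p-values. The other 5 members were tested with all genes. They and the gene lists used beside them were also chosen with earlier results of these data known, so their calls do not come from a blind choice. In this injury a large piece of a muscle is cut away. Here 40% of the tibialis anterior, a muscle of the lower leg, was removed from 8-week-old male C57BL/6 mice with no transgene or drug, and whole muscle was collected on day 3 (n = 5), day 7 (n = 6), day 14 (n = 6) and day 21 (n = 5) beside muscle labelled as control and called uninjured here (n = 5). The design text gives the excision as unilateral and the study's methods give it as bilateral, and the study describes the control muscle as healthy. Each of the 27 samples is a separate library, so p-values measure the spread between these libraries. The sample labels name no mouse, so both muscles of a mouse could be among them. The tests treat all libraries as independent.

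Intermediate filaments are rope-like polymers that give cells tensile strength. Keratins assemble only as pairs of a type II protein, such as keratin 8, with a type I protein, such as keratin 18. Desmin is the main filament protein of mature muscle and ties myofibrils to each other at the Z-disc and to the membrane. Vimentin forms the filaments of fibroblasts, endothelium, leukocytes and myoblasts. Nestin and synemin are large subunits that build into desmin or vimentin filaments, nestin in muscle precursors and at neuromuscular and myotendinous junctions. Plectin is not a filament protein but a linker that binds filaments to membranes and organelles. Whole-muscle RNA mixes fibres with all other cells, and fewer cells of a type and less RNA per cell cannot be told apart.

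Levels are given in FPKM, fragments per kilobase of gene scaled to sequencing depth, which corrects for length and so allows genes to be compared. Libraries held 14376395 to 24436763 counted reads (median 17398586). By their distance to the group means over all tested genes, 9 of the 27 libraries were nearer to another group than to their own: 1 on day 3, 3 on day 7, 3 on day 14 and 2 on day 21. At day 7, replicate 3 was nearest to uninjured muscle, replicate 5 to day 3 and replicate 6 to day 21, and day 3 replicate 5 was nearest to day 7. Results are therefore also given without these 4 libraries, which were picked after their values were seen. The other libraries nearer to another group were kept. Muscle markers bore out the tissue label, with the creatine kinase gene Ckm at 2859 to 5493 FPKM in uninjured muscle. The choice of scale mattered. The denominator the authors used ran from 0.747 to 1.48 times a library's own total of gene reads and averaged 0.782 in uninjured and 1.25 in day 3 muscle. With each library's own total in its place the median log2 difference over all 14630 tested genes moved from 0.012 to 0.40 on day 3, and the calls on day 3 went from 3417 higher and 2899 lower to 6534 higher and 618 lower.

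Krt8 (ENSMUSG00000049382) lies on chromosome 15 at 101996698 to 102004482 on the minus strand of GRCm38. Krt18 (ENSMUSG00000023043) lies on the same chromosome at 102028180 to 102032027 on the plus strand. Their starts are 23698 bases apart and the genes are transcribed away from each other. Krt18 is a type I keratin gene, but unlike the others of its type it sits at the edge of the type II keratin cluster. The 2 keratin promoters are shown because these genes moved together, and those of Des and Vim because the ratio of their mRNAs is compared here too. Each sequence is a RefSeq window (GRCm38.p6) of 280 bases, from 250 bases before to 30 bases after the annotated start, read 5′ to 3′ on the strand of the gene. Capitals mark TATAAA or GGGCGG (the GC box) on either strand. Of the 7 members, 6 had an entry, and Plec had none.
Krt8, chr15:102004313-102004592, minus strand: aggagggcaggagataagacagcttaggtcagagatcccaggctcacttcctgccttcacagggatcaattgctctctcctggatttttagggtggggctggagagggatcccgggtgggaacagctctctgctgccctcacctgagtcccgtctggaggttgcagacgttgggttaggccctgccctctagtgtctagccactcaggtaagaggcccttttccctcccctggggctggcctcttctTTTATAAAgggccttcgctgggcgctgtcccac
Krt18, chr15:102027966-102028245, plus strand: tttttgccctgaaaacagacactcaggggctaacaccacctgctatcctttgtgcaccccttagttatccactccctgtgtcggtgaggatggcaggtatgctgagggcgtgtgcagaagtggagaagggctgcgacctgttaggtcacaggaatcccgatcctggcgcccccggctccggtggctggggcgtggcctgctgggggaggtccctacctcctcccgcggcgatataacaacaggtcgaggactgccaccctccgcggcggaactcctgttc
Des, chr1:75360042-75360321, plus strand: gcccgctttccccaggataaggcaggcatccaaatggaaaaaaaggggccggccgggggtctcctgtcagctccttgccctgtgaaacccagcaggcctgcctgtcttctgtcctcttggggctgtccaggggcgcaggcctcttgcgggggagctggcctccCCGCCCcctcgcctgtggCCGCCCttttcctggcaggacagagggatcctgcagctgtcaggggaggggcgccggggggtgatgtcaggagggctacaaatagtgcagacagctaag
Vim, chr2:13574061-13574340, plus strand: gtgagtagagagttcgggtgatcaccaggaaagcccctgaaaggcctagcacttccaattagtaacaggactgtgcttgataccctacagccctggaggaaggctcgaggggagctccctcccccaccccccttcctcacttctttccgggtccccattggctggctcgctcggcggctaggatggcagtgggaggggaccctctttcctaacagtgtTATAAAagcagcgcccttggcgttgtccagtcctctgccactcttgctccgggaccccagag

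TATAAA was found in Krt8, where matches on both strands overlap at the annotated start, and in Vim, 32 to 27 bases before it. The same letters occurred in 13.1% of all 32851 RefSeq windows of this length. GGGCGG was found 2 times each in Des and Nes and in 34.7% of windows. The E-box CANNTG, the letters bound by MyoD and myogenin, occurred in Krt8 (2), Krt18 (1), Des (2) and Synm (1), and in 70.1% of windows. Neither TGANTCA, the AP-1 motif in 7.46% of windows, nor the CArG box, in 1.56%, was matched in any of the 6. These are matches of letters and were not tested for binding.

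Krt8 was close to absent from uninjured muscle, low on day 3 and high from day 7 on in most samples. In the 5 uninjured samples it stood at 0.115, 0, 0.131, 0 and 0 FPKM, which was 6 reads in all. At day 3 the values were 4.28, 3.59, 4.70, 5.36 and 6.05 FPKM, and every one lay above the uninjured samples. The 6 samples of day 7 split widely, at 47.5, 31.3, 0.0300, 87.7, 2.23 and 0 FPKM. At day 14 all 6 were high, at 53.7, 72.5, 74.9, 71.0, 48.7 and 34.4 FPKM. At day 21 they were 48.1, 80.8, 37.7, 31.4 and 7.50 FPKM, and replicate 5 was the lowest of the group but still above every day 3 sample. The mean level was thus 0.0491 ± 0.0675 (SD, n = 5) FPKM in uninjured muscle, 4.797 ± 0.950 (n = 5) on day 3, 28.1 ± 35.2 (n = 6) on day 7, 59.2 ± 16.2 (n = 6) on day 14 and 41.1 ± 26.7 (n = 5) on day 21.

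Krt18 followed its partner at a higher level. Its uninjured values were 0.261, 0.121, 0.297, 0.0565 and 0.190 FPKM, or 18 reads over the 5 libraries. At day 3 it reached 5.74, 14.9, 8.33, 9.90 and 8.50 FPKM. The day 7 samples stood at 113, 91.8, 0.0408, 381, 1.998 and 2.29 FPKM, so that the highest and the lowest injured samples of the series were both of day 7. At day 14 the values were 71.8, 161, 142, 176, 119 and 112 FPKM. At day 21 they were 133, 159, 73.6, 116 and 17.95 FPKM. Group means were 0.185 ± 0.0985 (SD, n = 5), 9.48 ± 3.40 (n = 5), 98.4 ± 147 (n = 6), 130.3 ± 37.5 (n = 6) and 100.1 ± 55.4 (n = 5) FPKM from uninjured muscle to day 21. For both keratins the order of the means was uninjured, day 3, day 7, day 21 and day 14. The samples of day 7, day 14 and day 21 overlapped, so that the order of these 3 groups is not set beyond their spread, while uninjured, day 3 and day 14 did not overlap each other for either gene.

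**Figure D1:**
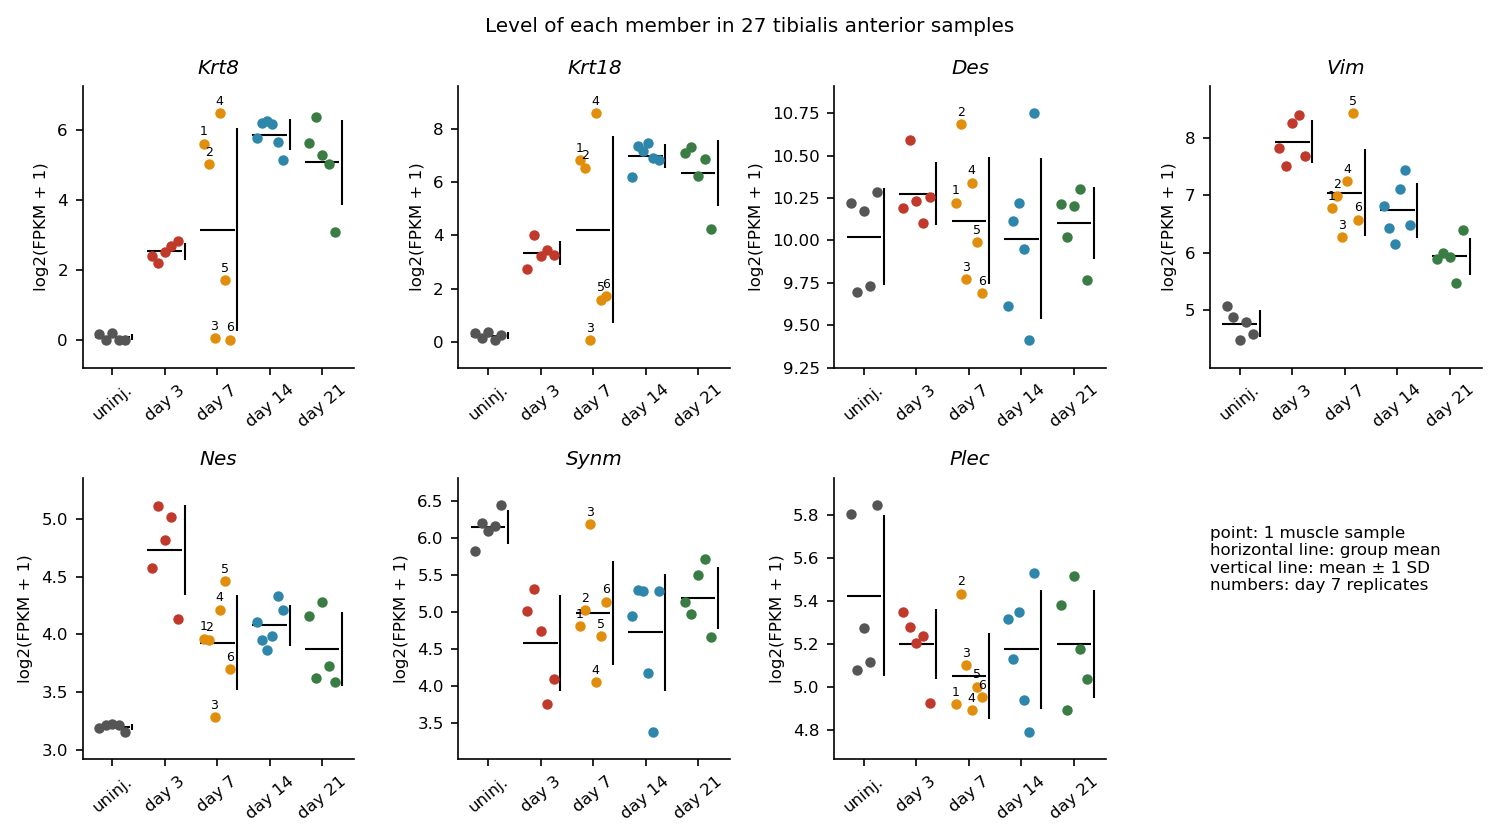
Level of each of the 7 genes in all 27 samples, as log2(FPKM + 1), with a separate vertical axis for each gene; points are samples, horizontal lines are group means and vertical lines are 1 SD to each side. Krt8 and Krt18 lay near 0 in uninjured muscle, and day 7 replicates 3, 5 and 6 (numbered) stayed far below the other 3 samples of that day; Vim and Nes were highest on day 3 in the mean, and Synm was highest in uninjured muscle.

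Against the pooled reads of the uninjured libraries, the mean of Krt8 was 108-fold higher on day 3, with a 95% counting interval of 49.8 to 295, and 1337-fold higher (614 to 3644) on day 14. For Krt18 the mean was 52.4-fold higher (33.1 to 88.4) on day 3, 720.2-fold higher (456 to 1215) on day 14 and 553-fold higher (349.8 to 933) on day 21. These exact Poisson intervals cover only the counting of 6 and 18 uninjured reads, not the spread between animals. On the log2(FPKM + 1) scale, which shrinks the change of genes that start near 0, the differences from uninjured muscle were 2.45 ± 0.88 (SE) on day 3, 3.07 ± 0.84 on day 7, 5.80 ± 0.84 on day 14 and 5.00 ± 0.88 on day 21 for Krt8. Those of Krt18 were 3.09 ± 1.04, 3.98 ± 0.997, 6.74 ± 0.997 and 6.11 ± 1.04. Each SE uses a residual spread shared by all groups, to which the split day 7 samples add. At day 14 the SE was 0.37 for Krt8 and 0.42 for Krt18 without the 4 libraries that stood apart, at the same differences. Without the 4 libraries that stood apart the day 7 differences were 5.63 ± 0.45 for Krt8 and 7.07 ± 0.51 for Krt18, and the day 7 means of the remaining 3 samples were 55.5 ± 29.002 and 195 ± 161 (SD) FPKM. In those 3 samples the mean of Krt18 was above that of day 14 and the mean of Krt8 below it. The Krt18 mean was set by replicate 4 at 381 FPKM. Replicates 1 and 2, at 113 and 91.8 FPKM, lay below the day 14 mean of 130.3 FPKM. For Krt18 the order of the means of day 7 and day 14 thus changed with the libraries kept.

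The 2 keratins rose and fell together from sample to sample. Over the 27 samples their log2 levels had a Pearson r of 0.984, and the deviations from the group means had an r of 0.955. The samples share the injury time course, so these values describe the set and carry no test. The level of Krt8 per unit of Krt18 was 0.561 ± 0.200 (SD, n = 5) on day 3, 0.474 ± 0.396 (n = 6) on day 7, 0.474 ± 0.152 (n = 6) on day 14 and 0.414 ± 0.103 (n = 5) on day 21. The mean log2 ratio differed from that of day 3 by -1.22 on day 7, -0.20 on day 14 and -0.38 on day 21, given without a test because both genes were chosen by their levels. The day 7 value rested on replicate 6, whose log2 ratio of -7.85 was set by the 0.01 FPKM added to each value, and was -0.087 without it. Without day 3 replicate 2, whose ratio was the lowest of its group, the difference on day 21 was -0.66. Day 7 replicate 6 stood apart from the pair, with 2.29 FPKM of Krt18 and no Krt8 read.

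**Figure D2:**
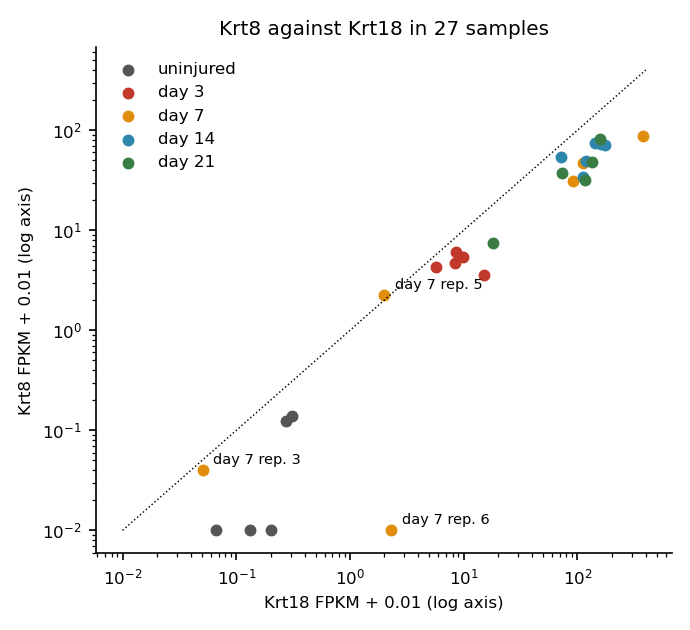
Krt8 against Krt18 in FPKM, each with 0.01 added so that zeros can be drawn, on log axes; each point is 1 of 27 samples and the dotted line marks equal levels. Injured samples ran parallel to the line and mostly below it. Day 7 replicate 6 left the trend with no Krt8 read. Day 7 replicate 3 lay near the uninjured samples, with Krt18 (0.0408 FPKM) below all of them.

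Other keratin genes stayed low. The table held 51 other protein-coding keratin genes, 48 of them never above 1 FPKM in any sample and 10 at 0 in all. The 3 that were tested were Krt10, Krt222 and Krt80. In the limma fit over 14630 genes Krt80, a type II keratin, rose by 1.04 on the log2 scale on day 3 (adjusted p = 4.35e-04) and by 0.60 on day 7 (adjusted p = 0.0319), from a mean of 0.139 FPKM in uninjured muscle to 1.44 and 0.817. Krt10, the type I keratin of upper epidermis, went from 1.63 to 1.27 FPKM on day 3 and did not pass (adjusted p = 0.434). Near Krt8 and Krt18, within 250 kb, lay 24 genes, and none of the 10 keratins among them exceeded 0.184 FPKM in any sample. Of the 9 neighbours that were tested, 2 were higher on day 3 and 3 on day 7, led by Itgb7, an integrin subunit of leukocytes, and none passed on day 14 or day 21. Among all tested genes 43.2%, 29.4%, 20.3% and 3.43% were called in time order, so these counts are not read as a result about the neighbours. The pseudogene Krt8-ps on chromosome 7 drew 48 reads in all against 27683 for Krt8.

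Markers of simple epithelium stayed near the background. Of 7 genes of simple epithelium (Epcam, Cdh1, Cldn4, Cldn7, Krt7, Krt19 and Elf3) none was high enough to be tested, and their summed level was 0.223 to 0.769 FPKM in uninjured, 0.283 to 1.05 in day 3, 0.161 to 2.03 in day 7, 0 to 0.450 in day 14 and 0 to 0.580 in day 21 muscle. Epcam, a surface protein of simple epithelia, did not exceed 0.125 FPKM on day 14, where Krt18 was at least 71.8 FPKM. Krt19, another simple epithelial keratin, reached at most 0.822 FPKM, in day 7 replicate 6. The keratinocyte list of 8 genes had 2 tested, and Trp63, a transcription factor of basal keratinocytes, rose by 0.71 (adjusted p = 0.0202) on day 7 and 0.82 (adjusted p = 0.0129) on day 14 on the log2 scale. Trp63 was at 3.09, 2.10 and 2.60 FPKM in day 7 replicates 1, 2 and 4, where both keratins were high. It was at 0.651, 0.226 and 0.411 FPKM in day 7 replicates 3, 5 and 6. Its highest day 14 level was 1.88 FPKM, and 5 of the 8 genes were at 0 in every sample of day 14. Of 4 mesothelial markers only Msln was tested. In the limma fit Msln was higher by 2.64 on the log2 scale on day 3 (adjusted p = 2.57e-06) and by 0.96 on day 7 (adjusted p = 0.0274). It did not pass on day 14 (0.74, adjusted p = 0.103) or day 21 (0.094, adjusted p = 0.909).

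Genes of newly formed fibres were low in the same 2 day 7 libraries that lacked Krt8. In day 7 replicates 1, 2 and 4, where Krt18 was high, the embryonic myosin gene Myh3 stood at 38.02, 24.1 and 49.7 FPKM and the perinatal myosin gene Myh8 at 31.6, 17.4 and 55.3 FPKM. In replicates 3 and 6, where Krt8 was at or near 0, Myh3 was 0.436 and 0.967 FPKM, Myh8 0.409 and 0.784 FPKM, and myogenin (Myog), the factor of differentiating myoblasts, 2.32 and 1.503 FPKM. Replicate 5 had the highest Myog of that day, 121 FPKM, with Myh3 at 20.1 FPKM, the macrophage gene Cd68 at 226 FPKM and both keratins near 2 FPKM. Myog stood at 39.6 to 203 FPKM and Myh3 at 28.8 to 69.6 FPKM in day 3 muscle, where Krt18 was at most 14.9 FPKM. Myh3 was at 3.70 to 14.6 FPKM in day 14 muscle, where Krt18 was at least 71.8 FPKM. Replicate 3 of day 7 held 195 FPKM of the collagen gene Col1a1 against at most 36.8 in uninjured muscle. The part of these cell types in the keratin levels was not tested.

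**Figure D3:**
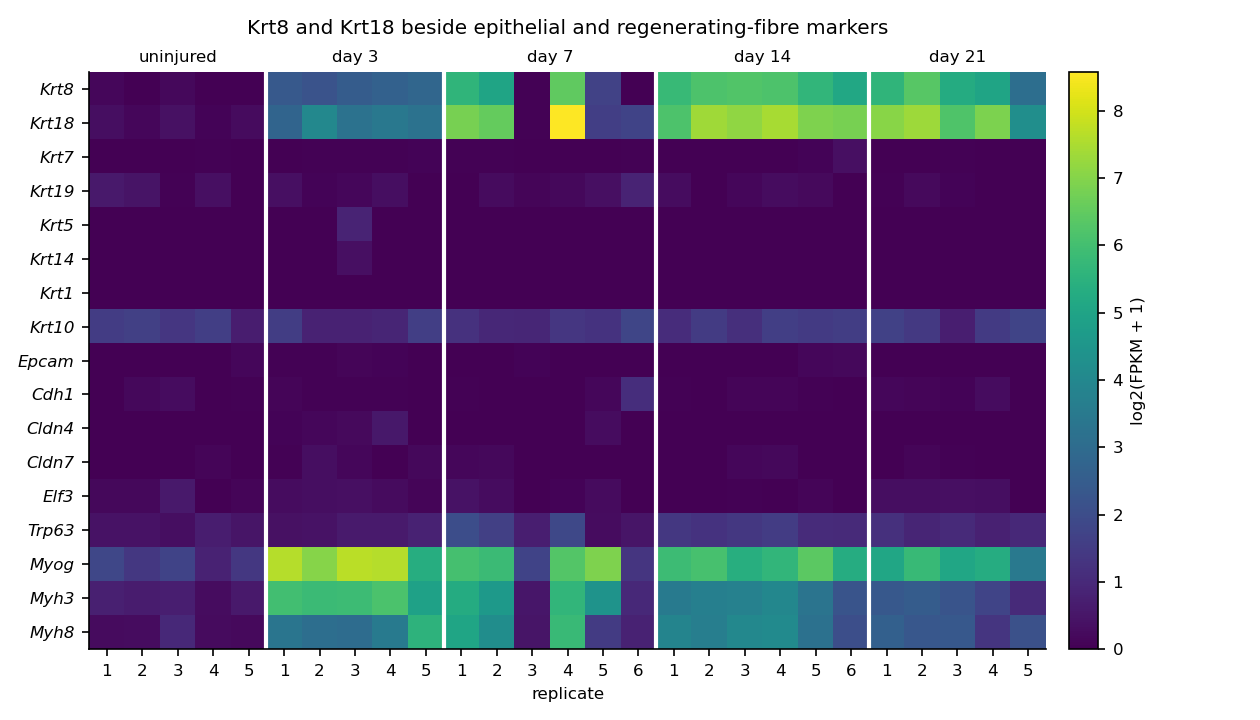
Levels of Krt8 and Krt18 (top rows) in every sample beside other epithelial genes, Trp63, and the regeneration genes Myog, Myh3 and Myh8, coloured by log2(FPKM + 1). The keratins were bright from day 7 to day 21 except in day 7 replicates 3, 5 and 6, the epithelial rows stayed dark throughout, and the lowest 3 rows were also dark in day 7 replicates 3 and 6.

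By a fixed rule, the genes whose log2 profile over the 27 samples was most like the mean of both keratins were Sln (r = 0.978), Cpne2 (0.968), Gadd45a (0.956), 2900079G21Rik (0.946) and Igfn1 (0.945). Sln encodes sarcolipin, a small inhibitor of the calcium pump. It averaged 1.83 FPKM in uninjured muscle, 61.8 on day 3, 355 on day 7, 550.4 on day 14 and 331 on day 21, and was at 0.401 and 7.37 FPKM in day 7 replicates 3 and 6. Igfn1, a muscle protein of the Z-disc region, averaged 3.35, 5.44, 37.0, 74.3 and 50.1 FPKM over the same groups and 0.157 FPKM in day 7 replicate 3. The values of r for deviations from the group means were 0.947 for Sln and 0.927 for Igfn1.

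Desmin mRNA was the most abundant of the 7 in every group and passed the test against uninjured muscle at no time. Des (ENSMUSG00000026208, chromosome 1, 75360329 to 75368579) stood at 1191, 829, 1156, 848 and 1249 FPKM in the uninjured samples. At day 3 it was 1168, 1542, 1204.5, 1099.9 and 1222.5 FPKM. At day 7 the lowest, median and highest samples were 825, 1106 and 1647 FPKM, and on day 14 they were 679, 1049 and 1722 FPKM. At day 21 the values were 1187, 1036, 1178, 1261 and 871 FPKM. All groups overlapped. The limma differences on the log2 scale were 0.25 ± 0.23 (SE; adjusted p = 0.394) on day 3, 0.095 ± 0.22 (adjusted p = 0.775) on day 7, -0.012 ± 0.22 (adjusted p = 0.976) on day 14 and 0.079 ± 0.23 (adjusted p = 0.881) on day 21. This depended on the scale: with each library's own read total as denominator Des was higher by 0.92 (adjusted p = 0.00315) on day 3 and by 0.65 (adjusted p = 0.0314) on day 7, while the median of all genes shifted by 0.40 and 0.36. It was also called higher by limma with values rescaled to a common sum, by 1.08 on day 3 and 0.82 on day 7 (adjusted p = 0.0205). After quantile normalization it was called higher by 1.12 on day 3 and 0.87 on day 7 (adjusted p = 0.00757). The median of all genes shifted by 0.62 and 0.58 under the common sum and by -0.12 and -0.051 after quantile normalization. An antisense gene, Gm15179, overlaps the end of Des by 368 bases and averaged 11.99 FPKM. The libraries did not keep strand, so reads from the overlap cannot be told apart, though the level of Des was far above it. No gene tracked Des closely, the nearest being Manbal (r = 0.785), Bysl (0.771) and Eef1g (0.767).

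Vimentin mRNA rose early and then declined, remaining above uninjured muscle in every injured sample. Vim (ENSMUSG00000026728, chromosome 2, 13573927 to 13582826) stood at 32.8, 28.6, 21.3, 26.96 and 23.04 FPKM in uninjured muscle. At day 3 it was 224, 180.2, 305, 334 and 205 FPKM. The lowest, median and highest samples were 76.3, 117 and 342 FPKM on day 7 and 70.4, 99.7 and 173 FPKM on day 14. At day 21 the values were 58.2, 62.9, 59.5, 43.6 and 83.4 FPKM. Means were 26.5 ± 4.57 (SD, n = 5), 249.7 ± 66.4 (n = 5), 149.5 ± 97.8 (n = 6), 111 ± 38.1 (n = 6) and 61.5 ± 14.3 (n = 5) FPKM. In the limma fit Vim was higher by 3.16 ± 0.30 (SE) on the log2 scale on day 3 (adjusted p = 7.50e-08), 2.28 ± 0.28 on day 7 (adjusted p = 7.14e-06), 1.97 ± 0.28 on day 14 (adjusted p = 1.34e-04) and 1.17 ± 0.30 on day 21 (adjusted p = 0.0275). From day 3 it fell by 1.99 to day 21 (adjusted p = 5.89e-05) and by 1.19 to day 14 (adjusted p = 0.00420), and from day 7 it fell by 1.11 to day 21 (adjusted p = 0.0370). The difference between day 7 and day 3 did not pass over all samples (-0.89, adjusted p = 0.110). Without the 4 libraries that stood apart it was -0.99 (adjusted p = 0.0161). Day 3 replicate 5 and day 7 replicate 5 were among those left out, each for its likeness to the other day. That choice widens the gap by construction, so this fit lends no support, and calls over all genes went from 7 to 1678. The call on day 21 was fragile: it was lost on leaving out any of uninjured replicates 3, 4 and 5 and day 21 replicates 1, 2 and 5, with adjusted p from 0.0543 to 0.0759, although every day 21 sample lay above every uninjured one. By median log2 difference, marker lists of macrophages, fibroblasts and satellite cells were higher on day 3, as Vim was. Those of endothelium, smooth muscle and Schwann cells were not. From day 3 to day 21 the median of the macrophage list fell at each step, at 2.97, 1.71, 0.50 and 0.28. That of the fibroblast list was highest on day 7, at 1.54, 1.86, 1.27 and 0.82. The satellite cell list gave 1.21, 0.86, 1.25 and 0.79, so only the macrophage list stepped down as Vim did. The 6 macrophage genes summed to 3.61 to 4.69 FPKM in uninjured, 53.7 to 338 in day 3 and 6.78 to 11.5 in day 21 muscle, and the 5 fibroblast genes to 44.7 to 115, 390 to 799 and 121 to 211 FPKM. The 4 satellite cell and myoblast genes summed to 16.9 to 25.7, 74.6 to 294 and 39.3 to 119 FPKM. At day 3, 6 of 6 macrophage, 4 of 5 fibroblast and 3 of 4 satellite cell genes were called higher, and on day 21, 0, 2 and 2 were. Over all genes 43.2% and 3.43% were called in either direction. The 4 endothelial genes summed to 63.2 to 79.4, 43.1 to 95.2 and 60.4 to 87.7 FPKM, with 0 higher and 1 lower at day 3 and at day 21. Of 5 smooth muscle and pericyte genes 1 was higher and 2 lower on day 3, and none was called on day 21. None of 4 Schwann cell genes was called on either day. The part of these cell types in the level of Vim was not tested. The genes most like Vim over the 27 samples were Serpinh1 (r = 0.982), a collagen chaperone, Cmtm3 (0.966) and Tpm4 (0.960).

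Nestin also rose, with its highest mean on day 3. Nes (ENSMUSG00000004891, chromosome 3, 87971078 to 87980451) was very even in uninjured muscle, at 8.11, 8.28, 8.34, 8.28 and 7.91 FPKM. At day 3 it reached 22.8, 33.6, 27.1, 31.4 and 16.6 FPKM. It stood at 8.75 (lowest), 14.5 (median) and 21.0 (highest) FPKM on day 7 and at 13.6, 15.5 and 19.2 FPKM on day 14. At day 21 the values were 16.8, 11.3, 18.4, 12.3 and 11.04 FPKM. All injured samples were above all uninjured ones, the closest being day 7 replicate 3. The log2 differences were 1.53 ± 0.19 (SE; adjusted p = 1.75e-06) on day 3, 0.73 ± 0.18 (adjusted p = 0.00452) on day 7, 0.88 ± 0.18 (adjusted p = 0.00215) on day 14 and 0.68 ± 0.19 (adjusted p = 0.0465) on day 21. From day 3 Nes fell by 0.86 to day 21 (adjusted p = 0.00174) and by 0.65 to day 14 (adjusted p = 0.0127). The difference between day 7 and day 3 did not pass over all samples (-0.80, adjusted p = 0.0682). Without the 4 libraries that stood apart it was -0.84 (adjusted p = 0.00128). As for Vim, leaving out libraries for their likeness to the other day widens the gap by construction, so this fit lends no support. At day 21 the call was at the threshold and was lost on leaving out any uninjured library, day 21 replicates 1 to 4, or any of 7 libraries of other days, with adjusted p up to 0.112. The genes most like Nes were Lmna (r = 0.919), Tubb6 (0.913) and Mymk (0.913), the last encoding the myoblast fusion protein myomaker.

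Synemin went the other way. Synm (ENSMUSG00000030554, chromosome 7, 67730160 to 67759742) stood at 55.3, 72.9, 67.3, 70.2 and 86.3 FPKM in uninjured muscle. It was 31.2, 38.7, 25.7, 12.4 and 16.03 FPKM on day 3, all below the uninjured samples. At day 7 the lowest, median and highest samples were 15.5, 29.2 and 71.8 FPKM, the highest being replicate 3. At day 14 they were 9.36, 33.8 and 38.4 FPKM. At day 21 the values were 33.9, 30.5, 43.97, 51.3 and 24.1 FPKM, again all below the uninjured samples. Synm fell by 1.56 (SE 0.36) on the log2 scale on day 3 (adjusted p = 0.00118), by 1.17 (SE 0.35) on day 7 (adjusted p = 0.0143) and by 1.42 (SE 0.35) on day 14 (adjusted p = 0.00637), and the difference of -0.95 (SE 0.36) on day 21 did not pass (adjusted p = 0.141), although it did with sample quality weights, with the replicate letter as a block and with the 2 groups fitted alone (adjusted p from 0.0134 to 0.0180). With values rescaled to a common sum the differences were -0.77, -0.46 and -0.97 at days 3, 7 and 14 and passed at none (adjusted p from 0.0664 to 0.286), while the median of all genes shifted by 0.62, 0.58 and 0.36. With each library's own total as denominator the limma difference on day 7 was -0.63 and did not pass (adjusted p = 0.114). The calls at days 3 and 14 were kept on that scale. Measured beside it, the 6 markers of mature fibres (Ckm, Acta1, Myh4, Myh1, Tnnt3 and Pvalb) had 5 lower on day 3, 3 on day 7, 1 on day 14 and 0 on day 21, and summed to 70324 to 86086 FPKM in uninjured and 17997 to 47869 FPKM in day 3 muscle. Among all tested genes 43.2%, 29.4%, 20.3% and 3.43% were called in either direction on these days. The part of mature fibre content in Synm was not tested. The gene Ttc23 spans Synm on the other strand at a mean of 0.885 FPKM. Genes most like Synm were Zfp106 (r = 0.969), Ccdc91 (0.959) and Sox6 (0.958).

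Plectin passed the test against uninjured muscle at no time over all samples. Plec (ENSMUSG00000022565, chromosome 15, 76170974 to 76232574) stood at 55.0, 32.8, 37.7, 33.7 and 56.7 FPKM in uninjured muscle and at 39.8, 37.8, 35.9, 36.8 and 29.4 FPKM on day 3. The lowest, median and highest samples were 28.7, 30.5 and 42.3 FPKM on day 7 and 26.7, 36.4 and 45.3 FPKM on day 14. At day 21 the values were 40.7, 28.8, 44.8, 35.2 and 31.8 FPKM. All groups overlapped, and adjusted p was 0.303, 0.0832, 0.283 and 0.488 in time order. The day 7 difference was -0.37 ± 0.16 (SE) over all samples. It passed without day 7 replicate 2 (-0.45, adjusted p = 0.0430) and without uninjured replicate 2 (-0.46, adjusted p = 0.0496), and it was positive, at 0.16, with each library's own total as denominator. Reads in the 1401 bases that Plec shares with Parp10 on the same strand cannot be assigned to either with certainty. The genes most like Plec were Pgp (r = 0.851), Parvb (0.779) and Atg4d (0.778).

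**Figure D4:**
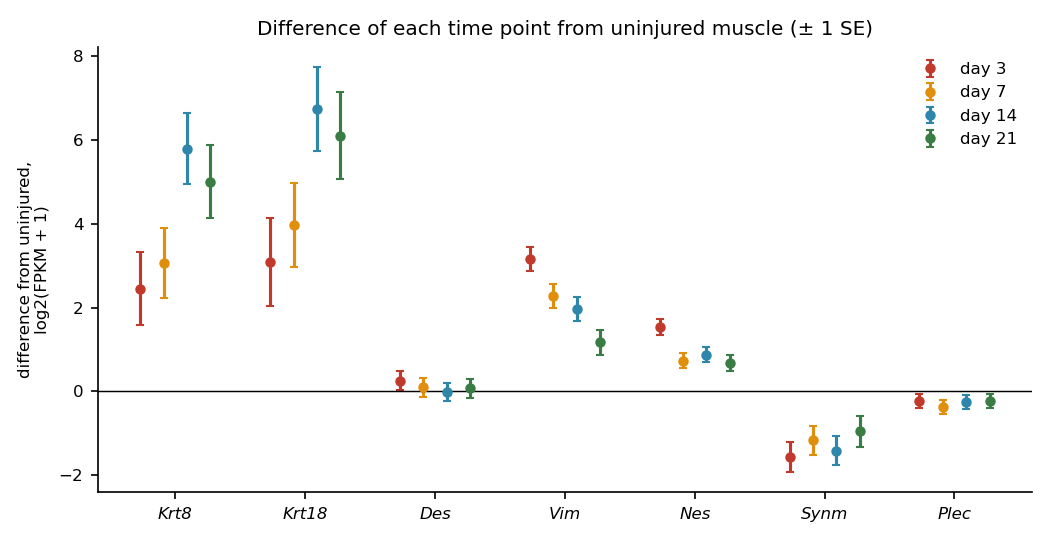
Difference of each time point from uninjured muscle on the log2(FPKM + 1) scale, with 1 SE from the limma fit to each side, for all 7 genes. Krt8 and Krt18 lay highest on day 14. Their wide errors come from a residual spread shared by all groups and are not the spread of day 14 alone. Vim and Nes stepped down from day 3 to day 21 in most steps, Synm lay below 0 at every time, and Des and Plec lay close to 0. The signs of Des on day 14 and of Plec at days 3, 7 and 14 turned under other scalings.

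Of the 5 genes other than the keratins, 3 were called on day 3, 3 on day 7, 3 on day 14 and 2 on day 21. Among all 14630 genes the shares called were 43.2%, 29.4%, 20.3% and 3.43%. The count on day 3 is therefore not read as a result about these genes. Vim and Nes lay above uninjured muscle in every injured sample, where all samples of a day were above in 19.8% of genes on day 3, 7.25% on day 7, 7.67% on day 14 and 5.26% on day 21. Synm lay below every uninjured sample in all samples of days 3, 14 and 21, where 16.5%, 8.05% and 5.13% of genes did, and in 5 of 6 samples of day 7, where 5.37% of genes had all samples below. Between day 3 and day 21, 2 of the 5 were called (Vim and Nes, both lower), against 25.5% of all genes. Des was called lower too under a common sum (-0.81, adjusted p = 0.0336), quantile normalization (-0.76, adjusted p = 0.0187) and own totals (-0.65, adjusted p = 0.0432). Between day 3 and day 14 the same 2 were called lower, against 18.7% of all genes, and between day 7 and day 21 Vim was, against 2.25%. Between day 7 and day 3, day 14 and day 7, and day 21 and day 14 none of the 5 was called by limma, where 0.0478%, 0.335% and 0% of all genes were. At an unadjusted p under 0.05 those comparisons held 2301, 1821 and 909 genes in all.

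Shares give the make-up of filament mRNA in each muscle. As a share of the summed FPKM of Des, Vim, Synm, Nes, Krt8 and Krt18, the keratins made up 0.0192% ± 0.0119 (SD, n = 5) in uninjured muscle, 0.909% ± 0.147 (n = 5) on day 3, 6.93% ± 9.43 (n = 6) on day 7, 13.8% ± 3.73 (n = 6) on day 14 and 9.96% ± 5.48 (n = 5) on day 21. The highest single value was 24.1%, in day 7 replicate 4. Des made up 90.7% of the sum in uninjured muscle and 74.5% on day 14, and Vim 2.36% in uninjured muscle and 16.2% on day 3. Synm went from 6.22% to 1.57% on day 3 and 2.68% on day 21. The keratins together took a larger share than Vim in 0 of 5 samples of day 3, 2 of 6 of day 7, 5 of 6 of day 14 and 4 of 5 of day 21.

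**Figure D5:**
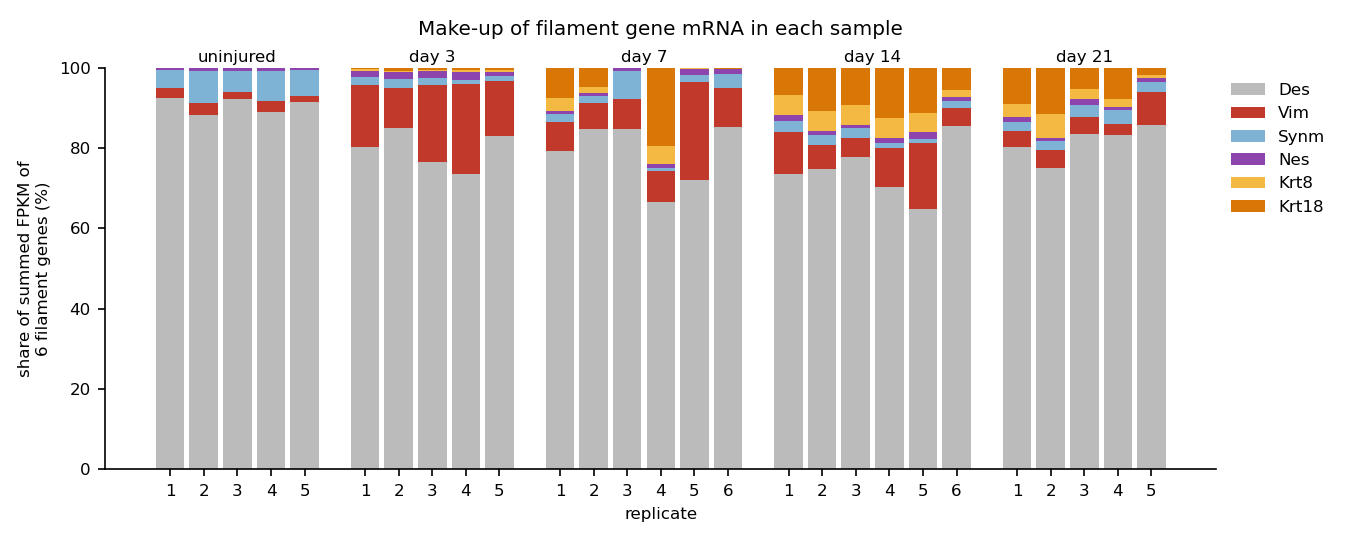
Share of each filament gene in the summed FPKM of 6 genes, in percent, for every sample (Plec, a linker, is left out). Des filled 88.3% to 92.5% of the uninjured bars; the Vim segment widened on day 3, and the keratin segments widened on day 14 and day 21 and in day 7 replicates 1, 2 and 4.

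A ratio within a library does not depend on the denominator of that library. The level of Vim per 100 units of Des was 2.61 ± 0.747 (SD, n = 5) in uninjured muscle, 20.7 ± 7.32 (n = 5) on day 3, 13.7 ± 9.91 (n = 6) on day 7, 12.02 ± 7.63 (n = 6) on day 14 and 5.81 ± 2.30 (n = 5) on day 21. The log2 ratio was higher by 2.96 on day 3, 2.22 on day 7, 2.02 on day 14 and 1.12 on day 21, and each injured sample lay above every uninjured one. In exact permutation tests (two-sided, 4 comparisons) each adjusted p was 0.00794, the smallest that 5 against 5 samples allow. This shows that the 2 mRNAs changed unequally, not which of them changed.

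The other intermediate filament genes outside the keratins were measured beside the members. Of 14 such genes, 7 were tested; 5 were higher on day 3, 5 on day 7, 3 on day 14 and 2 on day 21, and none was lower, where 43.2%, 29.4%, 20.3% and 3.43% of all genes were called in either direction. The median log2 difference of the 7 was 1.23 on day 3 and 0.34 on day 21, against 0.012 and 0.014 over all tested genes. Lmna, which encodes the nuclear lamins A and C, rose by 1.70 on day 3 and 0.90 (adjusted p = 0.0409) on day 21, from a mean of 19.1 FPKM to 66.3 and 36.5. Iffo1 rose by 1.23 on day 3 and 0.91 (adjusted p = 0.0151) on day 21. Lmnb2, a B-type lamin, rose by 1.75 on day 3 and not on day 21 (adjusted p = 0.474). Sync, which encodes syncoilin of the muscle Z-disc, went from 1.73 to 2.25 FPKM on day 3 and did not pass (adjusted p = 0.686).

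Relatives and partners of plectin and desmin were measured as well. Of 13 plakin and desmosome genes, 5 were tested; 1 was higher and 1 lower on day 3, 1 lower on day 7, 2 higher on day 14 and none passed on day 21. With 43.2% of all genes called on day 3, 2 of 5 is near the background. The plakin gene Dst fell by 0.69 on day 3 (adjusted p = 0.00121), its relative Macf1 rose by 0.55 (adjusted p = 0.00495), and Jup, the plakoglobin gene, stayed at a mean of 14.1 FPKM in uninjured and 15.9 in day 3 muscle (adjusted p = 0.585). Of 12 partners and chaperones at the Z-disc and costamere, 11 were tested; 1 rose and 1 fell on day 3, and none passed on day 7, day 14 or day 21, where 29.4%, 20.3% and 3.43% of all genes did. Hspb1, a small heat shock protein of muscle, rose by 1.25 (adjusted p = 4.00e-04) from 255 to 660.1 FPKM, and Neb, the nebulin of the thin filament, fell by 1.03 (adjusted p = 9.22e-04) from 105 to 51.4 FPKM. Cryab, the small heat shock protein mutated in a desmin-related myopathy, had means of 953 and 1485 FPKM and did not pass (adjusted p = 0.216).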

How the data were processed

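The study measured polyA RNA from 27 tibialis anterior muscles. Per the labels the libraries were non-directional, reads were aligned with HISAT2 2.0.5 and counted per gene with featureCounts 1.5.0-p3, and the authors deposited FPKM values; the genome build is not given in the sources used here, but 98.3% of gene coordinates equal those of the GENCODE M21 annotation of GRCm38. Values multiplied by gene length were whole reads, which gave the depth. The members and gene lists were chosen with earlier results of these data known.

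Groups came from the sample labels. Genes that reached 0.5 FPKM in 5 or more samples (14630 of 54532, all 7 members included) were fitted as log2(FPKM + 1) with limma 3.58.1 in R 4.3.3 (all 5 groups, one residual spread, trended prior), with Benjamini-Hochberg adjustment over all tested genes and a threshold of 0.05. The scripts were tested on simulated data. A pseudocount compresses the changes of low genes. The Vim to Des ratio was tested by exact permutation (scipy 1.17.1); the Krt8 to Krt18 ratio, with 0.01 added to each FPKM, is given without a test. Besides the members, the text names the 5 genes most correlated with the keratins, the 3 most correlated with each other member where given, and up to 4 of each list by level and size of change; further markers, neighbours and single libraries were named after their values were seen. Same-numbered samples of different groups did not deviate together (r -0.52 to 0.57, median -0.0031), so the numbers were not used as pairs. Alternatives changed the pseudocount, filter, scaling, weights, samples and block. Counting intervals and floors cover counting error only.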

Additional observations from a re-analysis of the deposited data

Results flagged for a closer look

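Within groups of 5 or 6 samples, single libraries stood far from the others in 8 of 44 groups and measures checked. The measures share genes and libraries and include the keratins, which were chosen by their levels. The count is therefore a description and is not set against a chance rate. At day 7 these were Krt18 in replicate 4 at 381 FPKM (next 113), Vim in replicate 5 at 342 FPKM (next 150.1), Synm in replicate 3 at 71.8 FPKM (next 34.2) and Plec in replicate 2 at 42.3 FPKM (next 33.3). The log2 ratio of Vim to Des was -1.57 in day 7 replicate 5 (next -3.11), and that of Krt8 to Krt18 was -7.85 in day 7 replicate 6 (next -2.12), which had no Krt8 read. At day 3 they were Des in replicate 2 at 1542 FPKM (next 1222.5) and the log2 ratio of Krt8 to Krt18 in the same library at -2.05 (next -0.88). So 6 of the 8 were at day 7, and 4 of those were in the libraries nearer to another group. The rise over uninjured muscle differed between time points for Vim, smaller at day 21 than at day 3 by 1.99 on the log2 scale (-1.99, adjusted p = 5.89e-05), and for Nes by 0.86 (-0.86, adjusted p = 0.00174), both by limma.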

How the results depend on the processing

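Calls of Vim, Nes and Synm against uninjured muscle at days 3, 7 and 14 kept their direction in every alternative run, and those of Vim and Nes kept their side of the threshold. The count of non-keratin members called at day 21, 2, was 0 with no filter, with FPKM rescaled to a common sum, with quantile normalization and with own totals, 1 with the replicate number as a block, and 0 to 2 on leaving out single libraries. Between day 7 and day 3 the count was 2 with sample quality weights and without the 4 libraries that stood apart (an alternative chosen after seeing the data), and 0 to 2 on leaving out single libraries; the libraries that changed it were day 3 replicate 5 and day 7 replicate 5.

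Signs turned as follows, none with a call. The difference of Des at day 14 was 0.47 (common sum), 0.51 (quantile), 0.39 (own total), 0.051 (quality weights) and 0.033 (ratio of means), and -0.16 to 0.11 leaving out single libraries; at day 7 and day 21 the latter gave -0.018 to 0.18 and -0.0020 to 0.16. Plec was 0.59 and 0.42 at day 3, 0.34 and 0.16 at day 7 and 0.22 and 0.14 at day 14 under a common sum and own totals, and 9.64e-04 at day 14 under quantile normalization. Between day 21 and day 3 Plec was -0.62 (common sum), -0.033 (quantile), -0.46 (own total), -0.0060 (voom on reads), -0.051 (replicate letter as a block) and -0.067 (without the 4 libraries), and -0.077 to 0.078 leaving out single libraries. The common sum and own totals move all genes of a library by a common factor. The cause of the turns was otherwise not tested.

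The replicate block gave log2 ratios of Vim to Des of 2.96, 2.23, 2.22 and 1.12 in time order, each with an exact adjusted p of 0.0625, the smallest that 5 pairs allow; the numbers do not pair the samples, with 7 of 27 samples correlating best with their own number. The day 21 ratio of Krt8 to Krt18 against day 3 ran from -0.66 to -0.23 leaving out single libraries. Differences of Krt8 and Krt18 grew with a smaller pseudocount, to 5.13 and 5.08 at day 3 with 0.1. Depth limits the uninjured levels of the keratins, where 3 reads equal 0.089 to 0.131 FPKM for Krt8 and 0.121 to 0.178 FPKM for Krt18.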
